A study of Homo sapiens with 4 samples.

Results

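The genes described here make cholesterol and fatty acids, or control the SREBP transcription factors that switch those genes on. They are 29 listed genes, all 29 found by symbol among the 23004 gene names of the files: 16 enzymes of the sterol arm, 7 enzymes of the fatty acid arm, 5 genes of SREBP control and the sterol carrier STARD4. RNA had been sequenced from BEAS-2B, an immortalized line of human bronchial epithelium, either left untreated (2 libraries) or exposed to 100 µM formaldehyde for 48 h (2 libraries). The dose and time are those of the treatment label, while the compound is named in the title of the series; formaldehyde is a reactive airway irritant that links proteins to DNA. The labels give no genetic change in either group and do not say whether replicates were separate cultures, so each p-value rests on library-to-library spread that could be technical.

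SREBF1 and SREBF2 encode proteins that are held in the membrane of the endoplasmic reticulum. When sterols are scarce the escort SCAP carries them to the Golgi, where proteases free the part that enters the nucleus, and when sterols are plentiful INSIG1 and INSIG2 keep SCAP and its cargo in place. The product of SREBF2 mainly drives the cholesterol genes and that of SREBF1 mainly the fatty acid genes, and INSIG1 is itself a target, so its RNA is a common gauge of SREBP activity.

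The libraries held between 14.2 M (formaldehyde replicate 1) and 26.4 M (untreated replicate 2) mapped fragments, with M for mega, as recovered from the deposited intervals. For the 17 members with 1 annotated transcript, that put between 140 and 14606 fragments behind a value, a 95% counting error of 1.66% to 16.9% that covers counting error only. The epithelial keratins KRT8 (290.4 to 447 FPKM) and KRT18 (206 to 418 FPKM) were high, while KRT5 was listed at 0 in all 4 libraries and CDH1 reached at most 0.631 FPKM. Of 7 fibroblast markers, COL1A1 (137 to 568 FPKM) and PDGFRB (7.40 to 29.97 FPKM) reached the filter, and the summed list measured 301 and 599.6 FPKM in untreated cells, against 145 and 277 FPKM in exposed cells. Both were lowest in formaldehyde replicate 1, and COL3A1 and DCN stood at 0 to 0.0725 FPKM. Summed markers of liver and fat cells reached at most 0.233 FPKM. Across genes, which are no independent replicates, Pearson's r between libraries was taken on the log2(FPKM + 1) scale. It ran from 0.878 (untreated replicate 2 with formaldehyde replicate 1) to 0.923 (the replicate 2 libraries). It was 0.917 for the replicate 1 libraries and 0.914 for untreated replicate 1 with formaldehyde replicate 2. Within the groups it was 0.903 (untreated) and 0.910 (formaldehyde), above 0.878 but below the other values between the groups.

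No member passed the test between the groups. FPKM is fragments per kilobase of transcript and per mega of mapped fragments, which allows levels of different genes to be compared. Each gene was tested on log2(FPKM + 1), on which the change of scarce genes is compressed, with limma over 12407 genes with a mean of at least 1 FPKM. All 29 members passed that filter and 0 had an adjusted limma p under 0.05, against 0.153% of the genes tested (0.0806% higher and 0.0725% lower with formaldehyde). Likewise 0 had an unadjusted limma p under 0.05, against 2.76% of the genes tested (0.838% lower). With the replicate number as a block that count was 4, beside 915 of the 12407 genes tested (343 without the block). The other fits of all 4 libraries gave 0 or 1. Those with 1 were rescaling by median ratios or summed FPKM, quantile normalization, genes of at least 300 nt and robust eBayes. In those settings 332 to 403 of the genes tested had such a p. The count with a library left out is not given, since such a fit rests on 1 library in a group. In the main fit the adjusted limma p was 0.9999 for every member. All 29 intervals (95%) included 0, yet 11 of them also included a decrease of 1 on the log2 scale, so these libraries leave room for a decrease of that size in those genes.

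Description by group showed a lean to lower values. The groups did not overlap and formaldehyde was lower in 10 of the 29 members, beside 10.7% of the genes tested, and higher in 0, beside 16.2%. The mean of log2(FPKM + 1) was lower with formaldehyde in 25 members and higher in 4, beside 44.9% of the genes tested that were lower. In these bulk libraries, fewer cells of a type and less RNA per cell cannot be told apart. The median log2 fold change was -0.18 over the members and 0.03 over all genes tested. These counts depended on the library. Without formaldehyde replicate 1, 19 members were lower and 10 higher, whereas without formaldehyde replicate 2 the counts were 25 and 4. Without untreated replicate 2, 27 were lower and 2 higher. Without untreated replicate 1 the counts were 19 and 10, and formaldehyde was then higher without overlap in 8 members (47% of the genes tested) and lower in 14 (28.2%). Without formaldehyde replicate 1 it was higher without overlap in 2 (31.1%) and lower in 11 (19.3%).

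**Figure D1:**
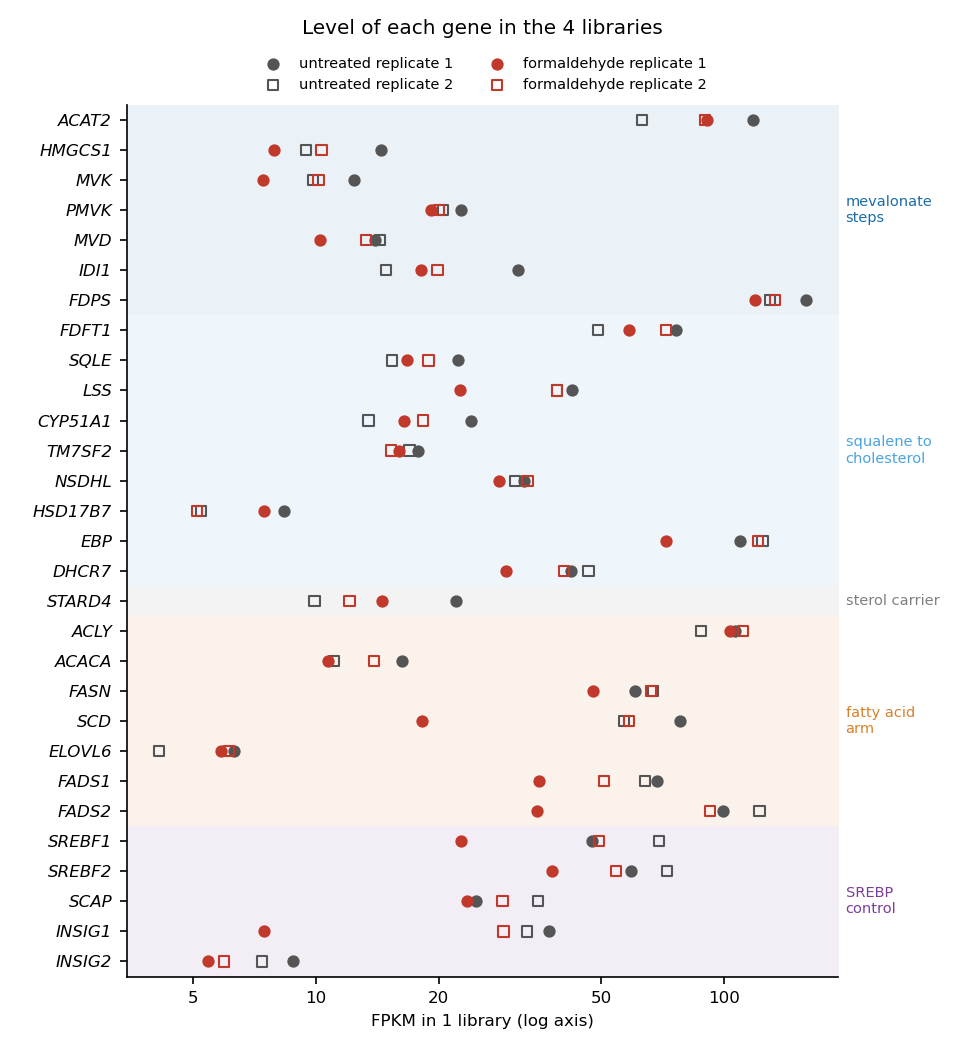
FPKM of each of the 29 genes (rows, grouped by role) in each of the 4 libraries, on a log axis; grey symbols are untreated, red symbols formaldehyde, filled circles replicate 1 and open squares replicate 2. Formaldehyde replicate 1 was the lowest of the 4 libraries in 19 of 29 genes, with INSIG1 at 7.44 FPKM and SCD at 18.2 FPKM standing far to the left of the other libraries.

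The genes of SREBP control had the lowest median log2 fold change of the 3 groups of members. It was -0.52, and all 5 were lower, beside 44.9% of the genes tested. In SREBF2, INSIG1 and INSIG2 the groups did not overlap, beside 10.7% of the genes tested that were lower without overlap. All 5 were lower in both replicates, beside 53.5% of the genes tested in replicate 1 and 37.3% in replicate 2. Their median difference was -0.63 in replicate 1 and -0.28 in replicate 2. Without formaldehyde replicate 1 the median was -0.26, and without formaldehyde replicate 2 it was -0.77.

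INSIG1 (chromosome 7, hg19, 155089486 to 155101945), the anchor that retains SCAP in the endoplasmic reticulum, measured 37.3 and 32.9 FPKM in untreated cells, against 7.44 and 28.8 FPKM in exposed cells. Both formaldehyde libraries were below both untreated ones, but replicate 1 was 5.02-fold below its untreated counterpart and replicate 2 was close to the untreated range. Its log2 fold change was -1.19 ± 0.61 (SE, 95% interval -2.76 to 0.39), and it was -0.28 without formaldehyde replicate 1. The 2 exposed libraries differed from each other by 3.87-fold.

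INSIG2 (chromosome 2, 118846050 to 118867597), the related anchor that is not known as a strong sterol target, was scarcer and measured 8.78 and 7.37 FPKM in untreated cells, against 5.44 and 5.94 FPKM in exposed cells. Here the formaldehyde libraries lay close together and both below the untreated pair. The log2 fold change was -0.44 ± 0.21 (SE, 95% interval -0.97 to 0.09), with an unadjusted limma p of 0.0880.

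SREBF2 (chromosome 22, 42229106 to 42302375) measured 59.2 and 72.6 FPKM in untreated cells, against 37.9 and 54.4 FPKM in exposed cells. The groups did not overlap, and each formaldehyde library was below both untreated ones. The log2 fold change was -0.52 ± 0.27 (SE, 95% interval -1.20 to 0.17), and -0.26 without formaldehyde replicate 1.

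SREBF1 (chromosome 17, 17714663 to 17740325) measured 47.4 and 69.3 FPKM in untreated cells, against 22.7 and 49.3 FPKM in exposed cells. Formaldehyde replicate 2 lay just above untreated replicate 1, so the groups overlapped, while replicate 1 was the lowest library. The log2 fold change was -0.76 ± 0.43 (SE, 95% interval -1.86 to 0.35), and -0.21 without formaldehyde replicate 1. The files hold 2 transcripts of SREBF1 that differ by 90 nt in length, and the longer one held 36.2% and 34.4% of the gene's FPKM in the untreated libraries but 9.04% and 25.3% in the formaldehyde libraries. Those shares rest on the authors' assignment of reads between near-identical transcripts. With only the highest transcript of each gene the log2 fold change of SREBF1 was -0.41.

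SCAP, the escort itself, measured 24.7 and 35.01 FPKM in untreated cells, against 23.5 and 28.7 FPKM in exposed cells. The groups overlapped, and the untreated libraries differed from each other (0.49 on the log2 scale) by more than the groups did (-0.18 ± 0.26, SE).

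Promoter sequence was examined because SREBP proteins are known to bind near the start sites of their target genes. RefSeq promoters (GRCh38.p14, 250 bases before to 50 after the start) matched 25 of the 29 members by symbol; ACAT2, FDFT1, SQLE and FASN had no entry. The textbook sterol regulatory element was searched on both strands, whole and as the shorter word TCACNCCAC that it contains. The other words were the NF-Y box CCAAT, the E-box CACGTG and the GC box GGGCGG. The promoters below are those of SREBF2, the one member with the sterol element, of INSIG1 and SCD, which had the lowest ratios in formaldehyde replicate 1, and of HMGCS1, an early enzyme of the sterol arm. Capitals mark the sterol element, the NF-Y box and the E-box on either strand; GC boxes are left in lower case.
SREBF2, chr22:41832855-41833154, plus strand: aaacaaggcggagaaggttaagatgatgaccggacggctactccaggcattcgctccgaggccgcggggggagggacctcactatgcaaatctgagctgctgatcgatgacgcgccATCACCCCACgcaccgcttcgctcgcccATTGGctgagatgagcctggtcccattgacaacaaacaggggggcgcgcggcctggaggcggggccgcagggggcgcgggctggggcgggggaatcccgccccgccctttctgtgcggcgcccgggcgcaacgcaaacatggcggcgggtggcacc
INSIG1, chr7:155297628-155297927, plus strand: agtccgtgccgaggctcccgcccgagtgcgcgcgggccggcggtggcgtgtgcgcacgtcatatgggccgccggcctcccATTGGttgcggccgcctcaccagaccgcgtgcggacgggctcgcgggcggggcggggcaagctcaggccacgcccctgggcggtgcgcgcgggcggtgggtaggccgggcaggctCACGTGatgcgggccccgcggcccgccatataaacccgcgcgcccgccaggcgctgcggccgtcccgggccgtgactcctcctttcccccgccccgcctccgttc
SCD, chr10:100346983-100347282, plus strand: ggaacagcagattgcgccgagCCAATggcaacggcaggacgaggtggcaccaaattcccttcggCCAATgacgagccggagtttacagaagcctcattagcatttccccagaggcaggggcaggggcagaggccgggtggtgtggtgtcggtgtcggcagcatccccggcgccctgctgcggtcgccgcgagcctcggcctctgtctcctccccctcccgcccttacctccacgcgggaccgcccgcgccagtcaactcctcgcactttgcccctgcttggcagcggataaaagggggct
HMGCS1, chr5:43313363-43313662, minus strand: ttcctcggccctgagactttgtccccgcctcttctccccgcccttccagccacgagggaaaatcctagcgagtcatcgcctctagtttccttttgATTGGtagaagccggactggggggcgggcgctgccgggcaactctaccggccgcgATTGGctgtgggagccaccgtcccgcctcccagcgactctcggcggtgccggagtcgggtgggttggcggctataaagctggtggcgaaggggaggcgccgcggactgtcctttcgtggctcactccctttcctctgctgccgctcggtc

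In SREBF2 the sterol element begins 134 bases before the start, followed by an NF-Y box on the opposite strand 106 bases before it. INSIG1 holds an E-box 55 bases and an NF-Y box 170 bases before the start, HMGCS1 a pair of NF-Y boxes and SCD a pair of NF-Y boxes, with no sterol element of these letters in the window of the 3 genes. The NF-Y box was found in 15 of 25 member promoters (60.0%), among them 10 of 13 of the sterol arm and 2 of 6 of the fatty acid arm, and in 34.7% of 22198 promoters of protein-coding genes. The GC box was in 23 of 25 (92.0%) against 56.3%, the E-box in 3 of 25 against 8.34%, the sterol element in 1 of 25 against 0.0450%, and TCACNCCAC in the same 1 of 25 against 1.13%. These are letter matches and do not show binding.

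In the fatty acid arm the desaturases SCD, FADS2 and FADS1 had the lowest estimates. Its median log2 fold change was -0.18 over 7 enzymes, 5 lower and 2 higher, beside 44.9% lower among all genes tested. In FADS1 and FADS2 the groups did not overlap, beside 10.7% of the genes tested that were lower without overlap. All 7 were lower in formaldehyde replicate 1 than in formaldehyde replicate 2, beside 50% of the genes tested. Without formaldehyde replicate 1 the median of the arm was 0.05.

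SCD (chromosome 10, hg19, 102106772 to 102124588), the desaturase that makes oleate from stearate, measured 78.02 and 56.9 FPKM in untreated cells, against 18.2 and 58.5 FPKM in exposed cells. Formaldehyde replicate 2 lay inside the untreated range, and replicate 1 was 4.28-fold below untreated replicate 1. The log2 fold change was -0.9995 ± 0.57 (SE, 95% interval -2.47 to 0.47). It was -0.18 without formaldehyde replicate 1 and -1.82 without formaldehyde replicate 2.

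FADS2 (chromosome 11, 61595713 to 61634825), the first desaturase on the path to long polyunsaturated fatty acids, measured 99.7 and 122 FPKM in untreated cells, against 34.8 and 92.4 FPKM in exposed cells. Both formaldehyde libraries were lower, replicate 1 by 2.86-fold against its untreated counterpart. The log2 fold change was -0.95 ± 0.49 (SE, 95% interval -2.21 to 0.32). Leaving out formaldehyde replicate 1 gave -0.25 and leaving out formaldehyde replicate 2 gave -1.64.

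FADS1 (chromosome 11, 61567097 to 61584529), the neighbouring desaturase that acts later on the same path, measured 68.5 and 64.1 FPKM in untreated cells, against 35.2 and 50.8 FPKM in exposed cells. The untreated pair lay close together and both formaldehyde libraries below it. Its log2 fold change of -0.64 ± 0.25 (SE, 95% interval -1.28 to 0.01) came with the lowest unadjusted limma p of the members, 0.0529, and was -0.38 without formaldehyde replicate 1.

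FASN (chromosome 17, 80036214 to 80056106), the enzyme that assembles palmitate, measured 60.7 and 66.9 FPKM in untreated cells, against 47.9 and 66.1 FPKM in exposed cells, so that replicate 1 alone was below the untreated range. ACACA, the carboxylase that makes malonyl-CoA for it, measured 16.2 and 11.1 FPKM in untreated cells, against 10.7 and 13.9 FPKM in exposed cells. For FASN and ACACA the groups overlapped. ACLY, which makes the acetyl-CoA used by both arms, measured 106 and 87.7 FPKM in untreated cells, against 103 and 111 FPKM in exposed cells. ELOVL6, the elongase that turns palmitate into stearate, was the scarcest member and measured 6.29 and 4.12 FPKM in untreated cells, against 5.84 and 6.11 FPKM in exposed cells. In these last 2 genes the estimates were above 0, at 0.15 ± 0.22 for ACLY and 0.19 ± 0.25 for ELOVL6 (log2, SE), within overlapping groups.

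**Figure D2:**
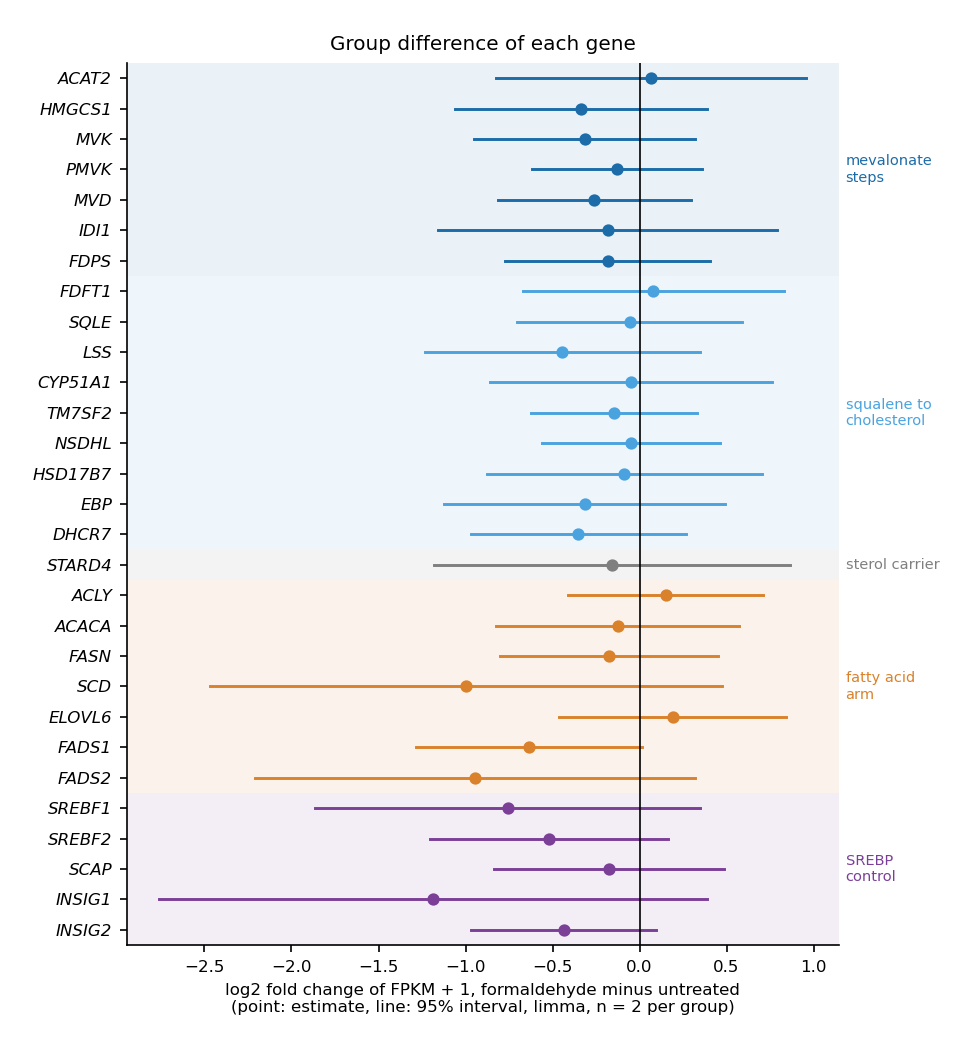
Log2 fold change of FPKM + 1, formaldehyde minus untreated, for each of the 29 genes (rows, grouped by role), as the limma estimate (point) with its 95% interval (line), n = 2 libraries per group. Every interval crosses 0; the lowest estimates are INSIG1 (-1.19), SCD (-0.9995), FADS2 (-0.95) and SREBF1 (-0.76), and those of the sterol enzymes lie between -0.44 and 0.08.

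The enzymes of the mevalonate steps build the isoprene units of sterols. In all of the 7 described here but MVK and MVD, the untreated libraries differed from each other by more than the groups did. ACAT2, which joins acetyl-CoA units at the entry, measured 118 and 62.9 FPKM in untreated cells, against 90.8 and 89.9 FPKM in exposed cells. The formaldehyde pair lay between the untreated values. ACAT2 shares 397 of the 1551 bases of its transcript (25.6%) with TCP1 on the opposite strand, which stood at 90.01 to 158 FPKM, and reads of the shared part cannot be assigned without a strand setting. Exons of IDI1, FDPS, STARD4 and SREBF1 also overlap a gene on the opposite strand, by 75 to 207 bases.

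HMGCS1 (chromosome 5, hg19, 43289493 to 43313595), the synthase of hydroxymethylglutaryl-CoA, measured 14.4 and 9.44 FPKM in untreated cells, against 7.90 and 10.3 FPKM in exposed cells. MVK, mevalonate kinase, measured 12.4 and 9.83 FPKM in untreated cells, against 7.41 and 10.1 FPKM in exposed cells. Both genes had the same order of libraries, with untreated replicate 1 highest and formaldehyde replicate 1 lowest, and overlapping groups. PMVK, the next kinase, measured 22.6 and 20.5 FPKM in untreated cells, against 19.1 and 20.02 FPKM in exposed cells. MVD, the decarboxylase that yields isopentenyl pyrophosphate, measured 13.96 and 14.4 FPKM in untreated cells, against 10.2 and 13.3 FPKM in exposed cells. In PMVK and MVD the groups did not overlap, by small margins, and the log2 fold changes were -0.13 ± 0.19 and -0.26 ± 0.21 (SE).

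IDI1, the isomerase of isopentenyl pyrophosphate, measured 31.3 and 14.8 FPKM in untreated cells, against 18.04 and 19.9 FPKM in exposed cells. FDPS, farnesyl pyrophosphate synthase and the most abundant member, measured 159 and 129.6 FPKM in untreated cells, against 119 and 134 FPKM in exposed cells. For IDI1 the untreated libraries differed by 1.03 on the log2 scale, beside a group difference of -0.18 ± 0.38 (SE). Over the 7 genes of these steps the median was -0.18, with 6 lower and 1 higher, beside 44.9% lower among all genes tested.

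From squalene to cholesterol the median log2 fold change lay closer still to 0, at -0.09 over 9 enzymes. Of these, 8 were lower and 1 higher, beside 44.9% lower among all genes tested. Single estimates did not all do so, since LSS (-0.44) and DHCR7 (-0.35) were the lowest of the sterol arm. FDFT1, squalene synthase, measured 76.3 and 49.2 FPKM in untreated cells, against 58.4 and 71.99 FPKM in exposed cells. SQLE, the epoxidase that is a rate-limiting step of the branch, measured 22.3 and 15.4 FPKM in untreated cells, against 16.7 and 18.9 FPKM in exposed cells. CYP51A1, the lanosterol demethylase, measured 23.9 and 13.4 FPKM in untreated cells, against 16.4 and 18.3 FPKM in exposed cells. In all 3 genes the formaldehyde libraries lay inside the span of the untreated ones, and the groups overlapped.

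LSS (chromosome 21, hg19, 47608360 to 47648738), which closes the ring to lanosterol, measured 42.5 and 38.945 FPKM in untreated cells, against 22.6 and 38.913 FPKM in exposed cells. The groups did not overlap only by the narrow gap between formaldehyde replicate 2 and untreated replicate 2, and replicate 1 was the low library. The estimate of -0.44 ± 0.31 (SE, 95% interval -1.24 to 0.35) was the lowest of the sterol arm and became -0.06 without formaldehyde replicate 1.

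EBP, a sterol isomerase, measured 109 and 124 FPKM in untreated cells, against 71.9 and 121 FPKM in exposed cells. DHCR7, the last reductase of one branch, measured 42.1 and 46.5 FPKM in untreated cells, against 29.3 and 40.6 FPKM in exposed cells. TM7SF2, a sterol reductase, measured 17.8 and 16.9 FPKM in untreated cells, against 15.97 and 15.2 FPKM in exposed cells. In EBP and DHCR7 formaldehyde replicate 1 stood well below the other 3 libraries, and in TM7SF2 all 4 were close; the groups did not overlap in DHCR7 and TM7SF2. NSDHL, which removes sterol methyl groups, measured 32.4 and 30.8 FPKM in untreated cells, against 28.2 and 32.97 FPKM in exposed cells. HSD17B7, a ketoreductase of the same complex, measured 8.35 and 5.22 FPKM in untreated cells, against 7.46 and 5.10 FPKM in exposed cells, so that both replicate 1 libraries were above both replicate 2 libraries. STARD4, which carries cholesterol between membranes, measured 22.04 and 9.92 FPKM in untreated cells, against 14.5 and 12.1 FPKM in exposed cells, again inside the untreated span.

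Set against each other, the sterol and the fatty acid arm had nearly equal median log2 fold changes, at -0.16 and -0.18, a gap of 0.01 before rounding. With ACLY, which serves both arms, left out, the fatty acid median was -0.41, a shift within the spread between libraries (SD 0.26). That median sits at FASN (-0.18), and the next lower estimate is FADS1 (-0.64). Leaving out ACACA or ELOVL6 instead would move it equally, so the near equality depends on which genes are counted and is not particular to ACLY. The arms have no test here, since their members are not replicates. In replicate 1 the medians were -0.41 for the sterol arm and -0.56 for the fatty acid arm. In replicate 2 they were 0.04 and 0.04. The gap changed sign with the library left out, at -0.14 without formaldehyde replicate 1 and 0.1999 without formaldehyde replicate 2. The range of single genes was wider in the fatty acid arm: in replicate 1 the ratio of formaldehyde to untreated FPKM ran from 0.234 (SCD) to 0.972 (ACLY) there, and from 0.531 (LSS) to 0.898 (TM7SF2) in the sterol arm.

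**Figure D3:**
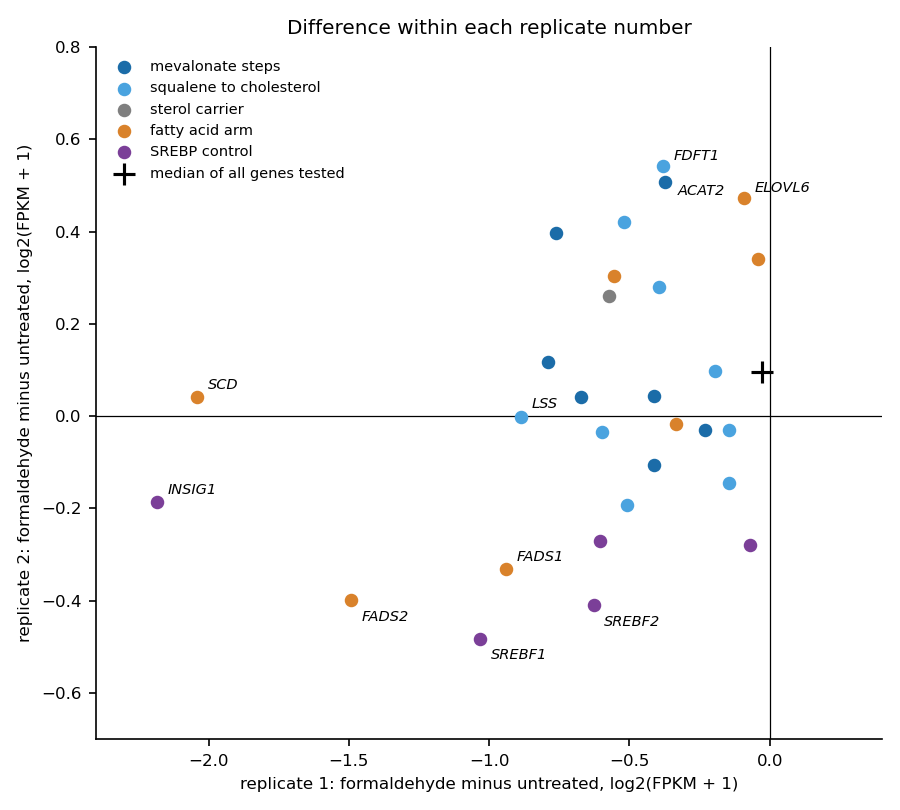
Difference of log2(FPKM + 1), formaldehyde minus untreated, in replicate 1 (horizontal) and in replicate 2 (vertical) for each of the 29 genes, coloured by role; the cross is the median of all genes tested (-0.03 and 0.10). All 29 points lie left of 0, and 15 of them lie below 0, with INSIG1 and SCD farthest left at -2.18 and -2.04.

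By replicate number the pathway looked different in each pair. All 29 members were lower in formaldehyde replicate 1 than in untreated replicate 1, where 53.5% of the genes tested were. In replicate 2, 15 of 29 members were lower, where 37.3% of the genes tested were. In replicate 1, 4 members (INSIG1, SCD, FADS2 and SREBF1) were under 50% of the untreated FPKM, beside 2.48% of the genes tested, and in replicate 2 0 members were. The ratio of formaldehyde to untreated FPKM had a median of 0.685 in replicate 1 and 0.999 in replicate 2. The labels do not say that a shared number marks a shared culture or day.

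The spread between untreated libraries was often as large as the group difference. The untreated libraries differed from each other by more than the groups did in 15 of 29 members. Of these, 10 were among the 16 of the sterol arm and 3 among the 7 of the fatty acid arm. The others were 1 of the 5 of SREBP control (SCAP), and STARD4. The share over all genes tested was not taken, so this count is not read as particular to the members. Untreated replicate 1 was the highest of the 4 libraries in 19 members (29.4% of the genes tested), and formaldehyde replicate 1 was the lowest in 19 (26.1% of the genes tested). Formaldehyde replicate 1 lay below formaldehyde replicate 2 in 25 of 29, beside 50% of the genes tested. Of 8 proliferation genes, 8 were lower in replicate 1 and 4 in replicate 2, beside 53.5% and 37.3% of the genes tested. Their median difference from the untreated mean was -0.40 and -0.25 in the 2 exposed libraries. The nuclear or structural RNA list (5 genes tested) had medians of 0.43 and -0.38 in the same order. The 2 fibroblast markers tested had medians of -1.59 and -0.42, and CD14, the 1 leukocyte marker tested, stood at -1.50 and -0.12. Of 5 epithelial markers tested, 4 were higher and 1 lower with formaldehyde, beside 44.9% lower among all genes tested. Their medians were 0.62 and 0.61 in the exposed libraries. The groups did not overlap in KRT7, KRT8 and KRT18, beside 16.2% of the genes tested that were higher without overlap. KRT7, a keratin of simple epithelia, measured 191 and 140.1 FPKM in untreated cells, against 531 and 319 FPKM in exposed cells (log2 fold change 1.32 ± 0.35, SE, unadjusted limma p 0.0129, adjusted p = 0.9999). The part of these lists in the members' values was not tested.

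The other genes of the pathway, in 6 lists of 96 genes found, had no member past the threshold either: of 89 tested, 46 were lower and 43 higher, beside 44.9% lower among all genes tested. The groups did not overlap in 14 lower and 7 higher genes of the 89, beside 10.7% and 16.2% of all genes tested. Other sterol synthesis genes had a median log2 fold change of -0.11 over 10. Other genes of fatty acid synthesis and modification had a median of 0.06 over 25, with 12 lower and 13 higher. ACSL3, a ligase that activates fatty acids, measured 33.7 and 30.9 FPKM in untreated cells, against 18.9 and 26.9 FPKM in exposed cells, without overlap. SREBP processing and turnover had a median of 0.05 over 20 and fatty acid oxidation split evenly around 0 (8 lower, 7 higher of 15). MBTPS1, the first protease that cuts SREBP, measured 44.8 and 55.7 FPKM in untreated cells, against 38.6 and 46.6 FPKM in exposed cells, with overlap.

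The list of sterol export and of the LXR receptors, which answer to excess sterol, had a median of -0.23 over 7, with 6 lower and 1 higher. In 3 of them formaldehyde was lower without overlap, beside 10.7% of the genes tested. Of the exporters only ABCG1 was tested, since ABCA1 (0.337 to 0.947 FPKM) and ABCG4 (0.230 to 0.781 FPKM) fell below the filter. The list also counts RXRA and RXRB. MYLIP, an LXR target that marks lipoprotein receptors for breakdown, measured 8.97 and 12.7 FPKM in untreated cells, against 3.996 and 6.52 FPKM in exposed cells (log2 fold change -0.93 ± 0.30, SE, unadjusted limma p 0.0282, adjusted p = 0.9999). Both formaldehyde libraries were below both untreated ones, with differences of -0.997 in replicate 1 and -0.87 in replicate 2. In sterol uptake, storage and trafficking the median was 0.04 over 12. STARD5, a sterol-binding relative of STARD4, measured 6.53 and 6.49 FPKM in untreated cells, against 3.92 and 3.89 FPKM in exposed cells (log2 fold change -0.62 ± 0.195, SE, unadjusted limma p 0.0257, adjusted p = 0.9999). Its libraries agreed closely within each group, unlike those of INSIG1 or SCD.

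**Figure D4:**
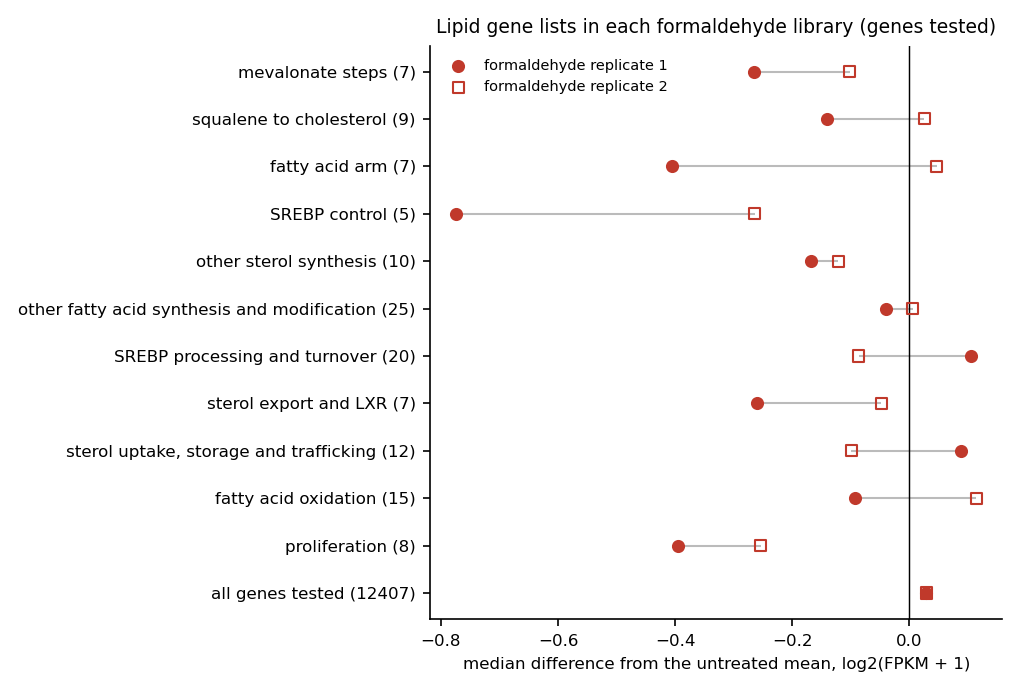
Median difference from the untreated mean, on the log2(FPKM + 1) scale, in formaldehyde replicate 1 (filled circle) and replicate 2 (open square) for the lists of lipid genes, the proliferation genes and all genes tested (number of genes tested in brackets). The cell type markers and the nuclear RNA list are not drawn. Of the lists drawn, SREBP control lies farthest left, at -0.77 and -0.26, and all genes tested lie at 0.03 in both libraries.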

How the data were processed

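RNA-seq of 4 libraries of BEAS-2B cells was analysed. FastQC 0.10.0, STAR 2.5.2, Cufflinks 2.0.2, hg19 and GRCh37 are listed in the submitters' processing notes. Neither the strand setting nor the handling of multi-mapped reads is given in the sources used here. The values are FPKM as the authors deposited them, 1 per transcript, with an interval and a coverage, per the file headers and attributes. Files were matched to samples by title.

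FPKM were summed over the transcripts of each gene name; 894 of 40255 transcripts lacked a gene symbol and were left out, between 1.07% and 1.31% of the summed FPKM. Fragment numbers were recovered from the deposited interval, and no count test was run. Genes with a mean of at least 1 FPKM entered a two-sided limma test (limma 3.58.1, R 4.3.3, eBayes with a mean trend, no covariate) of log2(FPKM + 1). P-values were adjusted by Benjamini-Hochberg over 12407 genes, with a threshold of 0.05. With 2 libraries against 2, an exact permutation test cannot give a p under 0.333. The fit was tested on simulated data. Members and lists were chosen with earlier results of these data known. All members are named; of each other list, the 3 genes with the largest moderated t and the most abundant gene could be named, and not all are. Alternatives covered the pseudocount, filters, scalings, transcript choice, ACLY in or out of the fatty acid arm, eBayes settings, the replicate number as a block and each library left out. Tables were made with Python 3.11.15 and figures with matplotlib 3.10.9.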

Additional observations from a re-analysis of the deposited data

How the results depend on the processing

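No member passed the threshold in limma under any of the 15 alternatives run over all members; the lowest adjusted p was 0.224 (INSIG1, limma, without formaldehyde replicate 2). Over all genes tested, 10 were called higher and 9 lower; without a filter on low values 0 and 0 were called, with genes of at least 300 nt 1 and 0, and 14 lower after rescaling to the summed FPKM. Leaving out 1 library gave 7 to 44 higher and 18 to 48 lower. With the replicate number as a block, 14 genes were called higher and 15 lower, and the lowest adjusted p of a member was 0.574 in limma. With only 2 pairs and no label that pairs them, the libraries share a number only (correlation of their deviations across genes 0.25).

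Members without overlap between the groups numbered 11 to 23 lower and 0 to 8 higher when 1 library was left out, beside 19.3% to 35% and 29.7% to 47% of all genes tested in those settings; 23 lower stood beside 35% without untreated replicate 2 and 20 lower beside 29.7% without formaldehyde replicate 2. With the highest transcript of each gene 1 was higher and 9 lower, beside 15.9% and 10.7% of the genes tested. Scaling moved the lower count from 10 to 13 by median ratios, 13 by summed FPKM and 14 by quantile normalization. Those stood beside 12.8%, 15% and 12.5% of the genes tested, where the main fit had 10.7%. The sterol arm median minus the fatty acid arm median ran from -0.14 to 0.1999 when 1 library was left out. The fatty acid median ran from -0.40 to 0.05 and the sterol median from -0.32 to -0.05; with ACLY left out, the fatty acid median was -0.41. Of 435 member values, 22 had the opposite sign, 18 of them with a library left out. With all libraries kept, the reversed values were ACAT2 at -0.034 with quantile normalization, and MVK at 0.20, CYP51A1 at 0.0087 and NSDHL at 0.12 with the highest transcript. With 1 library left out, log2 fold changes ran from -0.38 to 0.52 for ACAT2, -0.70 to 0.33 for IDI1, -0.23 to 0.39 for FDFT1, -0.31 to 0.20 for SQLE, -0.44 to 0.34 for CYP51A1, -0.16 to 0.061 for NSDHL, -0.38 to 0.21 for HSD17B7 and -0.69 to 0.057 for EBP. They ran from -0.70 to 0.38 for STARD4, -0.38 to 0.13 for ACACA, -0.40 to 0.053 for FASN, -0.064 to 0.44 for ELOVL6 and -0.42 to 0.067 for SCAP. The other 15 members kept their sign in every alternative run. The cause was not tested. Where an arm was left with 1 library, that library was assumed to vary like the other group. Depth limits scarce members most, with a counting error of up to 16.9%.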
